A study of Mus musculus with 12 samples.

Results

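The Slit ligands and Robo receptors were followed as 5 genes, Slit2, Slit3, Robo1, Robo2 and Robo4, among 20620 genes counted in mouse aortic valves. The genes were taken by symbol from the authors' deposited table of fold changes, and all 5 of the listed symbols were found there and in the count table. That table holds the comparison of Notch1+/-;Gata5-/- with wildtype, and it marks 1 of the 5, Robo2, as raised, so the members' values in that comparison are given as a description, with no test. The set was chosen by gene family with the measured fold changes and adjusted p-values of that comparison known.

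RNA was sequenced from 12 pools, 4 to a group, each made of 3 aortic valves from mice at postnatal day 10. They comprise wildtype pools, pools labelled Notch1+/-;Gata5+/- (Gata5-heterozygous-labelled here) and pools labelled Notch1+/-;Gata5-/- (Gata5-null-labelled here), so both mutant groups carry the heterozygous Notch1 label. The labels name neither the strain and sex of the mice nor the structure of the mutant alleles. Because every pool holds whole valve tissue, fewer cells of a type and less RNA per cell cannot be told apart.

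Slits are secreted leucine-rich repeat proteins that bind the immunoglobulin-like domains of Robo receptors, with heparan sulphate proteoglycans as co-receptors. The receptors act on the cytoskeleton through small GTPases and actin regulators, and the pathway is best known for steering axons. In the mouse, loss of Slit3 or of Robo1 and Robo2 has been linked to malformed semilunar valves and septa, and in humans ROBO4 variants have been linked to bicuspid aortic valve.

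Libraries held 13866604 to 25059653 counts. Wildtype replicate 2 and Gata5-null-labelled replicate 3 stood apart, with 3208 and 6000 genes at 0 against 1017 to 2908 in the other 10 libraries. Gata5 had 0 counts in all 4 Gata5-null-labelled pools and averaged 1.77 ± 1.03 CPM for wildtype and 4.09 ± 2.27 CPM for Gata5-heterozygous-labelled pools, so it was not lower under the heterozygous label. Notch1 averaged 128 ± 26.4 CPM for wildtype, 172 ± 20.6 CPM for Gata5-heterozygous-labelled and 185 ± 29.5 CPM for Gata5-null-labelled pools (SD over 4 pools), so the counts do not check the Notch1 label or the heterozygous Gata5 label. CPM, the usual count scaled to library size, was computed with TMM factors. All 11 markers of valve interstitial cells and fibroblasts passed the filter on low counts, summing to 27001 to 35614 CPM per library, and the 10 cardiomyocyte markers summed to 23807 to 55850 CPM, so the pools also held heart muscle RNA.

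Slit3 was the most abundant member per length and Robo2 the member that differed most between groups. Slit3 averaged 21.4 CPM per kilobase of coding sequence over the 12 libraries, followed by Robo1 at 12.7, Slit2 at 9.54, Robo2 at 7.46 and Robo4 at 5.05 CPM per kilobase. The ranges of Slit2 (7.73 to 12.2 CPM per kilobase) and Robo2 (4.78 to 11.8) overlapped, as did those of Robo2 and Robo4 (3.20 to 7.56), so the order of these neighbours is within their spread. Slit3 (14.9 to 26.3 CPM per kilobase) also overlapped with Robo1 (9.58 to 16.6), and Robo1 with Slit2. With all annotated exons as the length, the order was Slit3 at 16.1, Robo1 at 3.73, Robo4 at 3.07, Robo2 at 1.99 and Slit2 at 1.74 CPM per kilobase, which moves Slit2 and Robo4. Lengths are those of GENCODE M21, an annotation of GRCm38, whereas the submitters' processing notes name GRCm39.

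**Figure D1:**
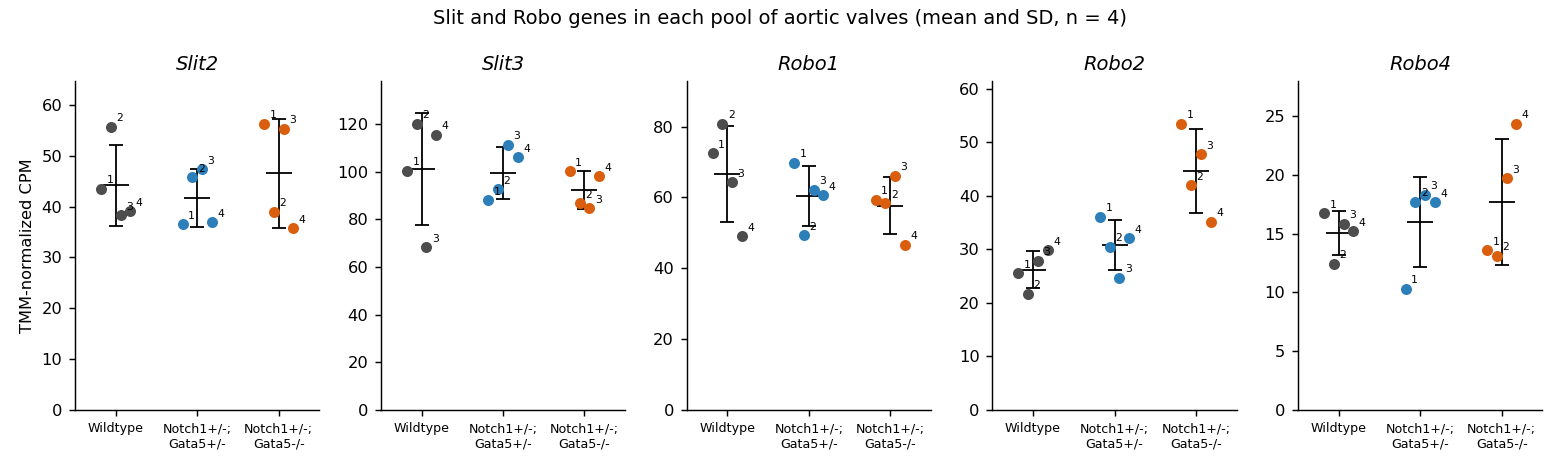
TMM-normalized CPM (y axis, from 0) of Slit2, Slit3, Robo1, Robo2 and Robo4 in each pool, by genotype label (x axis). Points are pools with their replicate number, and bars give the mean and SD of 4 pools. The Gata5-null-labelled pools lie between 35.1 and 53.4 CPM for Robo2, all above the wildtype pools, and the groups overlap for the other 4 genes.

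Slit2 (ENSMUSG00000031558), a ligand of Robo1 and Robo2, had overlapping values in the 3 groups. Its levels were 43.6, 55.7, 38.3 and 39.1 CPM in wildtype replicates 1 to 4. They were 36.5, 45.7, 47.4 and 36.9 CPM in the Gata5-heterozygous-labelled and 56.3, 39.0, 55.3 and 35.8 CPM in the Gata5-null-labelled pools. The Gata5-null-labelled pools fell into a high pair, replicates 1 and 3, and a low pair, and the ranges of the groups overlapped. Against wildtype the log2 fold change was -0.09 (SE 0.19) in the Gata5-heterozygous-labelled pools, with an adjusted p of 1 in edgeR's quasi-likelihood test and an exact permutation p of 0.657 (two-sided). The value for Gata5-null-labelled minus wildtype, 0.08 (SE 0.19), was 0.22 once wildtype replicate 2 was left out and -0.01 once Gata5-null-labelled replicate 1 or 3 was.

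Slit3 (ENSMUSG00000056427), the ligand known from mouse mutants for its part in heart and diaphragm development, had the highest CPM of the 5 genes. In wildtype replicates 1 to 4 it was at 101, 120, 68.3 and 116 CPM, so replicate 3 was the low library. The Gata5-heterozygous-labelled pools had 88.0, 92.8, 111 and 106 CPM and the Gata5-null-labelled ones 100.4, 86.8, 84.7 and 98.3 CPM, all inside the wildtype range. The log2 fold change against wildtype was -0.02 (SE 0.16, edgeR adjusted p = 1, exact permutation p = 1) for Gata5-heterozygous-labelled and -0.13 (SE 0.16) for Gata5-null-labelled pools. The second of these was -0.28 without wildtype replicate 3 and 0.01 without both libraries that stand apart.

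Slit2 and Slit3 each hold a gene for the same microRNA inside their span, Mir218-1 and Mir218-2. Its mature sequence is shown because both host genes give the same 21 bases, with the seed (bases 2 to 8) in capitals, as RNA 5′ to 3′ from RefSeq on GRCm38.p6 (chr5:48223966-48223986 within Slit2 and chr11:35616840-35616860 within Slit3, both on the plus strand).
mmu-miR-218-5p: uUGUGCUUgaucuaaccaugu
Robo1 and Robo2 are known targets of miR-218. Libraries were made from poly-A RNA, so the mature microRNA was not measured here, and the level of a host gene does not give it.

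Robo1 (ENSMUSG00000022883), a receptor for Slit2 and Slit3, did not separate the groups. It was at 72.4, 80.8, 64.2 and 49.0 CPM in wildtype, 69.8, 49.3, 62.2 and 60.6 CPM in Gata5-heterozygous-labelled and 59.4, 58.4, 66.2 and 46.6 CPM in Gata5-null-labelled replicates 1 to 4. Every group had a library near 47 to 49 CPM, and the widest spread was in wildtype. The log2 fold change of Gata5-heterozygous-labelled against wildtype was -0.14 (SE 0.17, edgeR adjusted p = 1, exact permutation p = 0.486), and ran from -0.26 without wildtype replicate 4 to -0.035 without wildtype replicate 2. Gata5-null-labelled minus wildtype gave -0.21 (SE 0.17), which was -0.09 without wildtype replicate 2 and -0.33 without wildtype replicate 4.

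Robo2 (ENSMUSG00000052516), the closest relative of Robo1 and also a Slit receptor, had more reads in the Gata5-null-labelled pools than in wildtype. The counts were 490, 462, 538 and 594 in wildtype replicates 1 to 4, which is 25.5, 21.7, 27.8 and 29.7 CPM. Gata5-heterozygous-labelled replicates 1 to 4 had 692, 603, 490 and 660 counts, or 36.0, 30.5, 24.7 and 32.0 CPM. In the Gata5-null-labelled pools the counts were 1140, 647, 694 and 851, or 53.4, 41.9, 47.8 and 35.1 CPM. All 4 Gata5-null-labelled pools were above all 4 wildtype libraries, and their lowest, replicate 4, was just under the highest Gata5-heterozygous-labelled library, replicate 1. Means were 26.2 CPM ± 3.47 in wildtype, 30.8 CPM ± 4.70 in Gata5-heterozygous-labelled and 44.6 CPM ± 7.83 in Gata5-null-labelled pools (SD, n = 4 each).

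The Gata5-null-labelled level of Robo2 was 1.70 times the wildtype level, a log2 fold change of 0.77 (SE 0.20), and 0.69 to 0.86 with any 1 of the 8 libraries left out. It was 0.66 without both libraries that stand apart. Robo2 was 1 of the 5 members without overlap in this comparison, in which 0.936% of all 19346 genes tested were higher without overlap. In the authors' deposited table Robo2 has a log2 fold change of 0.80 (SE 0.22) and an adjusted p of 0.0795, and it is marked Upregulated there, as are 0.0788% of the genes listed, out of 0.236% marked as changed in either direction in the authors' deposited table. The mark needs an adjusted p under 0.1 and a log2 fold change over 0.58. Just inside that threshold in the authors' deposited table is Zfp944 (adjusted p = 0.0930) and just outside Col8a1 (0.114). The other 4 members are not marked and have an adjusted p of 1 in the authors' deposited table.

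The Gata5-heterozygous-labelled group overlapped with wildtype at Robo2. Gata5-heterozygous-labelled against wildtype gave a log2 fold change of 0.23 (SE 0.20, edgeR adjusted p = 1, exact permutation p = 0.2), with 3 of its 4 libraries above the highest wildtype library. It was 0.15 without Gata5-heterozygous-labelled replicate 1 or without wildtype replicate 2, and 0.33 without Gata5-heterozygous-labelled replicate 3. In this comparison edgeR called 0 of the 5 members and 0% of all genes, with 0 members and 1.25% of genes at an unadjusted p under 0.05. DESeq2 called 0 and limma-voom 0 of the members, against 8 and 0 of all genes.

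Gata5-null-labelled against Gata5-heterozygous-labelled pools differ in the label of Gata5 alone. Robo2 was 1.45 times higher, a log2 fold change of 0.53 (SE 0.20, unadjusted p = 0.0122, edgeR adjusted p = 1). The exact permutation p was 0.0571, where 0.0286 is the smallest that 4 against 4 libraries can give. Robo2 did not pass adjustment over all genes, and the same Gata5-null-labelled pools entered the comparison that chose the members, so this is no separate support. EdgeR called 0 of the 5 members and 0% of all genes, with 1 member and 3.18% of genes at an unadjusted p under 0.05, while DESeq2 called 0 members and 13 genes and limma-voom 0 of each. None of the 5 members was higher without overlap, against 0.703% of all genes. The other 4 members had log2 fold changes between -0.11 (Slit3) and 0.16 (Slit2), each with an adjusted p of 1.

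**Figure D2:**
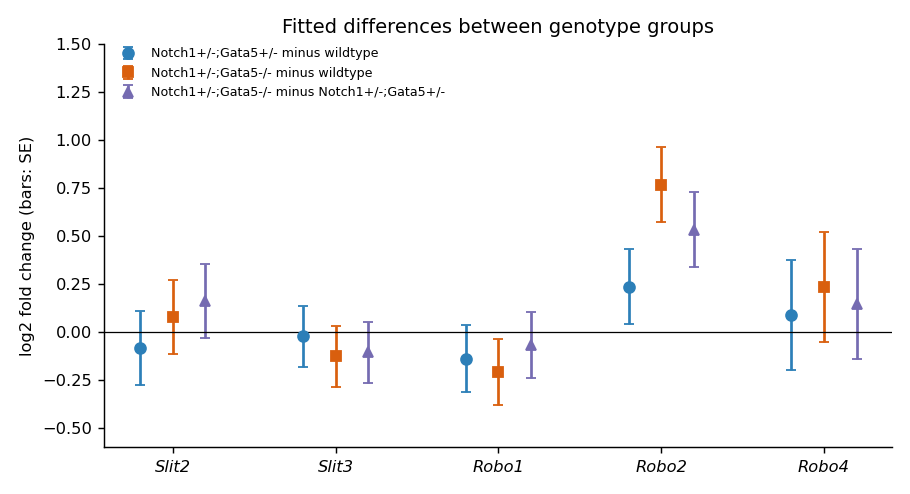
Fitted log2 fold change (y axis) of each member in the 3 comparisons, from the edgeR fit of 12 libraries, with bars of 1 SE. Robo2 stands at 0.77 for Notch1+/-;Gata5-/- minus wildtype, 0.53 minus Notch1+/-;Gata5+/- and 0.23 for Notch1+/-;Gata5+/- minus wildtype, and the other members lie between -0.21 and 0.23. The comparisons share libraries.

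Within a library, Robo2 and Robo1 can be set against each other without any scaling between libraries. There were 35.2, 26.8, 43.3 and 60.7 Robo2 counts per 100 Robo1 counts in wildtype replicates 1 to 4. The Gata5-heterozygous-labelled pools had 51.6, 61.8, 39.7 and 52.8, and the Gata5-null-labelled ones 89.9, 71.7, 72.2 and 75.4. All 4 Gata5-null-labelled pools were above the other 8, whose ranges overlapped. The ratio holds the same Robo2 counts that entered the comparison known when the members were chosen, so this is no separate support. Robo2 alone overlapped between the mutant groups, at 35.1 CPM in Gata5-null-labelled replicate 4 and 36.0 CPM in Gata5-heterozygous-labelled replicate 1. The means were 41.5 ± 14.4, 51.5 ± 9.09 and 77.3 ± 8.55 per 100 (SD, n = 4 each). Gata5-heterozygous-labelled pools did not differ from wildtype by more than the spread (exact permutation p = 0.286). The coding sequences are of similar length, 4.87 kb for Robo1 and 4.54 kb for Robo2, so on average Robo1 remained the more abundant of the pair per length in every group (13.7 and 5.77 CPM per kilobase in wildtype, 11.8 and 9.82 in Gata5-null-labelled pools).

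**Figure D3:**
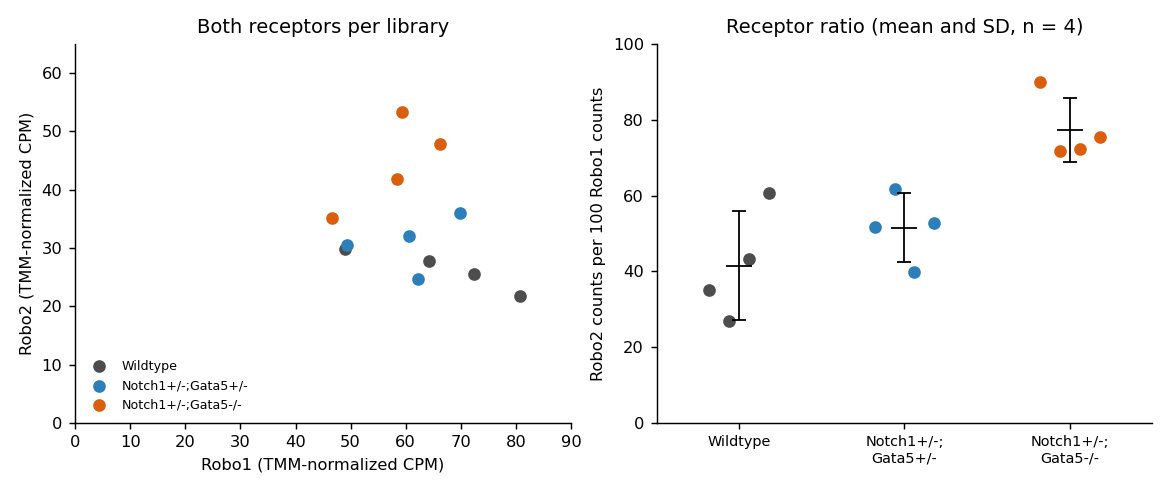
Left, Robo2 against Robo1 in each library (both in TMM-normalized CPM). Right, Robo2 counts per 100 Robo1 counts by genotype label, with the mean and SD of 4 libraries. The Gata5-null-labelled pools sit between 71.7 and 89.9 per 100, above the highest of the others at 61.8.

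Smooth muscle genes were lower in the group in which Robo2 was higher. The 10 smooth muscle markers summed to 5795 to 7734 CPM in wildtype, 5213 to 5974 CPM in Gata5-heterozygous-labelled and 3948 to 5329 CPM in Gata5-null-labelled pools, and 4 of the 10 were called lower by edgeR in Gata5-null-labelled against wildtype libraries, where 0.0258% of all genes were called. The count was 0 with only the 8 libraries compared, 0 without both libraries that stand apart and 7 with DESeq2. With 1 library left out it was 1 without wildtype replicate 2, 2 without Gata5-null-labelled replicate 1 or 2, 7 without Gata5-null-labelled replicate 4, and 3 or 4 otherwise. Over all 12 libraries, Pearson's r of Robo2 with the mean log2 CPM of the 10 markers was -0.87. This was the largest in size among all members and cell type lists, followed by -0.75 for Robo1 with the cardiomyocyte markers. These values include the group differences and are given without a test. Within groups the order differed, although among wildtype replicates 1 to 3 a higher sum went with a lower Robo2. Gata5-null-labelled replicate 4 had the highest smooth muscle sum of its group and the lowest Robo2, whereas wildtype replicate 4 had the highest of both, and Gata5-heterozygous-labelled replicate 3 had the lowest Robo2 with the second lowest sum of its group. The 8 Schwann cell and neural markers tested, which bear on the best known site of Robo2, summed to 22.1 to 38.6, 30.6 to 34.6 and 23.8 to 38.8 CPM in the 3 groups in the same order, so they overlapped. Cardiomyocyte markers summed to 23807 to 51509 CPM in wildtype, 29330 to 55850 CPM in Gata5-heterozygous-labelled and 38530 to 55509 CPM in Gata5-null-labelled pools, and all 10 had a positive log2 fold change for Gata5-null-labelled minus wildtype (median 0.19). The 6 atrial cardiomyocyte markers summed to 158 to 702, 77.8 to 517 and 82.4 to 309 CPM in the groups in that order, 5 of the 6 with a negative log2 fold change (median -1.24). The part of these cell types in the Robo2 result was not tested.

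RefSeq lists 3 start sites for Robo2, and the counts per gene do not say which of them was used. The 250 bases before each start are shown because the groups differ in the label of a GATA factor and of a Notch receptor. They are printed 5′ to 3′ on the gene's strand, which is the minus strand of chromosome 16 in GRCm38.p6, from RefSeq. Capitals mark GATAA, the core of sites bound by GATA factors, or TGGGAA, the core bound by RBPJ, the DNA-binding partner of Notch, searched on both strands.
Robo2 start 1 (chr16:75447294-75447543): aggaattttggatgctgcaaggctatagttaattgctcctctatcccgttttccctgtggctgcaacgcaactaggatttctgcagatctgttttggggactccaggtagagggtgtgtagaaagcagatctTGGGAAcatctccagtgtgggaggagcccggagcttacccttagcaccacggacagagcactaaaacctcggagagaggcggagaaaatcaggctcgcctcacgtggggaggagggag
Robo2 start 2 (chr16:75092771-75093020): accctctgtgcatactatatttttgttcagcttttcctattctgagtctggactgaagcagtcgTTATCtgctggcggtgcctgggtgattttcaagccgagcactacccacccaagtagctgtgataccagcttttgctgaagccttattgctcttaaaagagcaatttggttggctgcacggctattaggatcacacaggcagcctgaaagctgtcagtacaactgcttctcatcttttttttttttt
Robo2 start 3 (chr16:74411826-74412075): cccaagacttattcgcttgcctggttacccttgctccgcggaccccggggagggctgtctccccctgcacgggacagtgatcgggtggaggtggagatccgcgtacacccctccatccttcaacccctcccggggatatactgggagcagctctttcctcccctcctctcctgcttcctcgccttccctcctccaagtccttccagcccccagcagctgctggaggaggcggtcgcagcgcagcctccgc
Start 1 has 1 TGGGAA, on the gene's strand, 118 bases before the start. Start 2 has 1 GATAA on the opposite strand, read as TTATC, and start 3 has neither. The bases after start 3 were found near the beginning of a GENCODE M21 transcript of Robo2. Those after starts 1 and 2, which hold the matches, were not. Of all 32851 promoter windows of this length, 22.6% hold a GATAA and 21.6% a TGGGAA. The windows of Robo1, Robo4, Slit2 and Slit3 hold neither, but each of these genes has 1 window against 3 for Robo2. A match is a description of the letters and not evidence of binding.

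Robo4 (ENSMUSG00000032125), a receptor found mainly on endothelial cells that stabilizes vessels and binds Unc5b, was the lowest of the 5 genes in CPM. It was at 16.7, 12.4, 15.9 and 15.2 CPM in wildtype replicates 1 to 4 and at 10.3, 17.7, 18.3 and 17.7 CPM in the Gata5-heterozygous-labelled ones. The Gata5-null-labelled replicates had 13.6, 13.1, 19.8 and 24.4 CPM. Replicates 3 and 4 of the last group were the highest of all 12 libraries, and replicates 1 and 2 lay inside the wildtype range. The log2 fold change against wildtype was 0.09 (SE 0.29, edgeR adjusted p = 1, exact permutation p = 0.771) for Gata5-heterozygous-labelled pools, with 0.0050 once wildtype replicate 2 was left out and 0.25 once Gata5-heterozygous-labelled replicate 1 was. It was 0.23 (SE 0.29) for Gata5-null-labelled pools, and 0.04 without Gata5-null-labelled replicate 4 and 0.36 without Gata5-null-labelled replicate 1.

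All 16 endothelial markers passed the filter on low counts. Their sum was 1101 to 1355 CPM in wildtype, 1115 to 1498 CPM in Gata5-heterozygous-labelled and 1167 to 1543 CPM in Gata5-null-labelled pools. Those with the highest mean were Pecam1 at 219, Kdr at 158 and Vwf at 128 CPM over the 12 libraries. Vwf, the clotting factor carrier made by endothelium, averaged 151, 115 and 117 CPM in the groups in the same order, and its log2 fold change for Gata5-null-labelled minus wildtype was -0.37 (SE 0.29, edgeR adjusted p = 1). Between Gata5-null-labelled and wildtype libraries 14 of the 16 had a positive log2 fold change, with a median of 0.20. Relative to the mean log2 CPM of these genes, Robo4 stood at -1.61 ± 0.23 in wildtype, -1.62 ± 0.52 in Gata5-heterozygous-labelled and -1.58 ± 0.29 in Gata5-null-labelled pools (difference in log2 CPM, SD, n = 4 each). The difference between the wildtype and Gata5-heterozygous-labelled means was within the spread (exact permutation p = 1). Gata5-null-labelled minus wildtype was 0.03 on this measure. It was 0.15 when Robo4 was set against the log2 of the summed CPM of 5 of the endothelial genes. Gata5-heterozygous-labelled replicate 1 had the lowest Robo4 of all libraries although its endothelial sum, 1361 CPM, was the second highest of its group. Its cardiomyocyte sum, 29330 CPM, was the lowest of its group. Over all 12 libraries, Pearson's r of Robo4 was 0.22 with the mean log2 CPM of the endothelial markers. It was 0.60 with that of the cardiomyocyte markers and -0.61 with that of the melanocyte markers, given without a test.

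**Figure D4:**
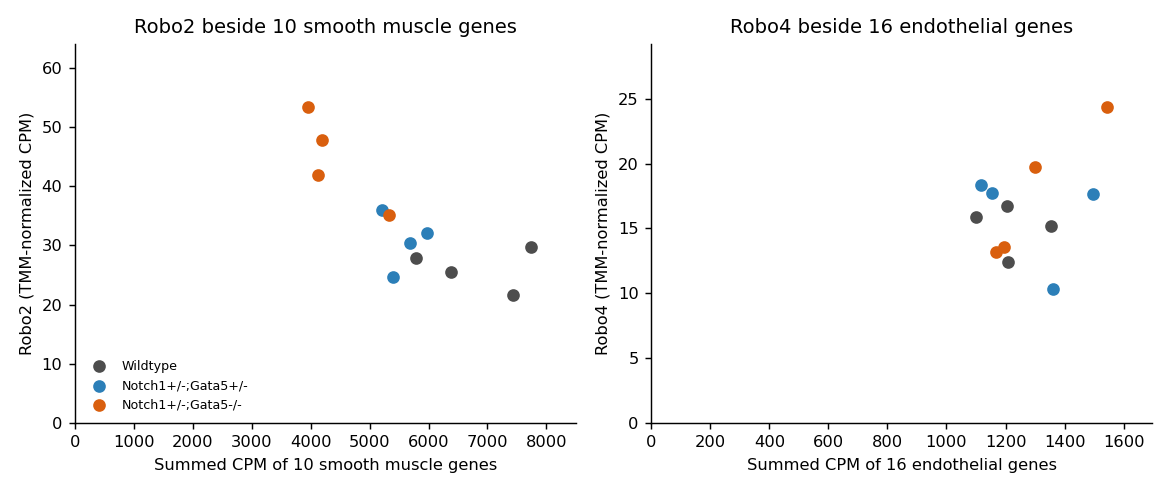
Left, Robo2 (y axis, CPM) against the summed CPM of 10 smooth muscle genes. Right, Robo4 (y axis, CPM) against the summed CPM of 16 endothelial genes. Each point is a library, coloured by genotype label. The Gata5-null-labelled pools are at the upper left for Robo2 (35.1 to 53.4 CPM at 3948 to 5329 CPM of smooth muscle genes), and in the right panel the groups overlap on both axes.

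The remaining family members were close to the detection limit. Robo3, a receptor known from commissural axons, had 1, 0, 0 and 0 counts in wildtype and 22, 43, 6 and 14 in Gata5-heterozygous-labelled replicates 1 to 4, so these groups did not overlap, as was the case for 1.32% of all genes with the first group higher. Gata5-null-labelled pools had 25, 1, 0 and 1 counts of Robo3. Over the group totals, 85 against 1 count is a ratio of 86.5 with a 95% counting interval of 15.1 to 3457 (exact binomial, counting error only), and the edgeR test did not call it (adjusted p = 1 for Gata5-heterozygous-labelled against wildtype). DESeq2 and limma-voom did not call it either (adjusted p = 1 for each). Robo3 is the next gene to Robo4 on chromosome 9, on the opposite strand, and their annotated spans do not overlap. No source used here gives the strand setting of the counting. Slit1, a ligand of the nervous system, had 15, 0, 9 and 0 counts in wildtype, 0, 0, 15 and 29 in Gata5-heterozygous-labelled and 0, 24, 0 and 0 in Gata5-null-labelled pools. Most libraries had none, and the groups overlapped.

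Other genes of the pathway, listed by role and not by how they moved, showed no called change. Of 54 tested (including Robo3 and Slit1), edgeR called 0 in Gata5-null-labelled against wildtype libraries, as did DESeq2 and limma-voom. In edgeR 6 of the 54 had an unadjusted p under 0.05, 2 higher and 4 lower. This is a higher share than the 1044 of all 19346 genes (5.4%). The 54 were not matched to all genes in expression level and no set test was run, so the shares are a description. The median log2 fold change of the 54 was -0.03, and that of all genes was -0.03. In the other comparisons edgeR called 0 of the 54 too, as did the other tools. At an unadjusted p under 0.05 in edgeR were 2 of the 54 for Gata5-heterozygous-labelled against wildtype (1.25% of all genes). For Gata5-null-labelled against Gata5-heterozygous-labelled it was 1 of the 54 (3.18% of all genes).

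Among the co-receptors and other ligands, 9 of 20 were positive and 11 negative in Gata5-null-labelled against wildtype libraries, with 0 called. Unc5b, a netrin receptor that also binds Robo4, was at 146 CPM ± 19.6 in wildtype, 180 CPM ± 13.9 in Gata5-heterozygous-labelled and 198 CPM ± 36.8 in Gata5-null-labelled pools, a log2 fold change of 0.44 (SE 0.14, edgeR adjusted p = 0.772) for the last against wildtype. Heparan sulphate proteoglycans went both ways without passing the test. The glypican Gpc6 was at -0.37 (SE 0.15, edgeR adjusted p = 0.839), and the syndecans Sdc4 and Sdc3 were at -0.34 and 0.28 (log2 fold change, edgeR adjusted p = 0.872 and 0.897). Dcc, a netrin receptor that Robo1 can silence, was not among the genes tested.

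For the intracellular effectors 8 of 22 were positive and 14 negative, with 0 called. Those with the smallest p were the actin regulators Vasp at -0.38 (SE 0.17, edgeR adjusted p = 0.870) and Enah at -0.23 (SE 0.12, adjusted p = 0.989) and the GTPase Rac1 at -0.36 (SE 0.17, adjusted p = 0.897). The genes of heparan sulphate synthesis were even, 5 positive and 5 negative, with 0 called, and Ext1, which builds the chain, was at -0.25 (edgeR adjusted p = 0.998). Glce, an epimerase of the chain, was at 0.38 and the sulphotransferase Ndst1 at -0.19 (edgeR adjusted p = 1 for each).

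**Figure D5:**
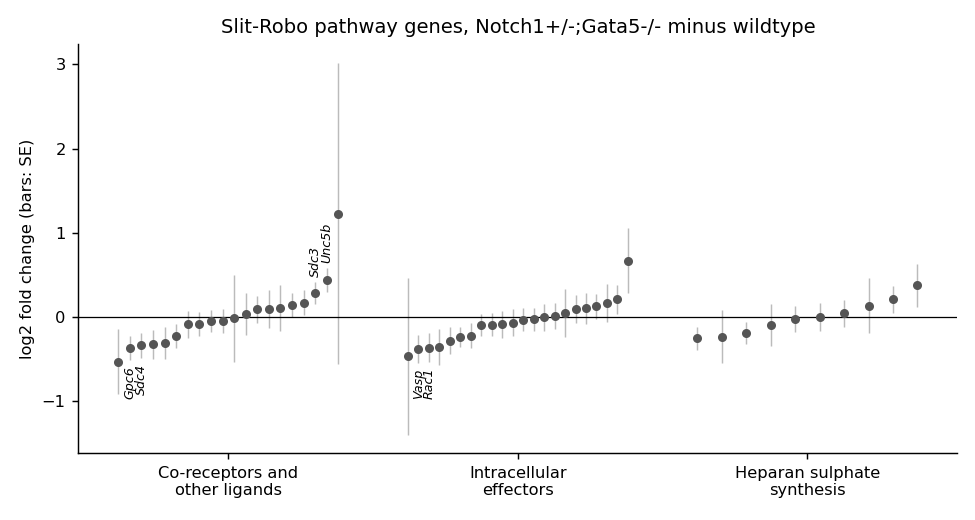
Log2 fold change of Notch1+/-;Gata5-/- minus wildtype (y axis, bars of 1 SE) for pathway genes that are not members, in 3 groups by role and sorted within each. Names mark the 6 genes with an unadjusted p under 0.05, from -0.38 for Vasp to 0.44 for Unc5b, and none passed adjustment over all genes.

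No pair of the 5 genes varied together over the libraries in a way that passed a test. Among their 10 pairs, Pearson's r of log2 CPM over 12 libraries ran from -0.51 (Robo1 with Robo4) to 0.39 (Robo1 with Slit2), and none passed a permutation test adjusted over the pairs (smallest adjusted p = 0.864 for r and 0.67 for Spearman's rho). Robo1 with Robo4 had a rho of -0.35, a permutation p of 0.0894 for r and of 0.264 for rho, and r was -0.14 without the 2 libraries farthest from the median of Robo1. Robo2 with Slit3 had the largest rho in size, -0.55 (permutation p = 0.067 before adjustment). For Robo2 with Slit2, r went from 0.12 to -0.78 without the 2 libraries farthest from the median of Robo2. These are Gata5-null-labelled replicates 1 and 3, which also had the high Slit2 values of their group. The value of -0.78 rests on this exclusion. It was 0.25 without both libraries that stand apart and -0.01 for deviations from group means.

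Genes whose log2 CPM was most like that of a member over the 12 libraries were different for each of the 5. For Robo2 they were Tmem168, Tsnax and Nek7, with Pearson's r of 0.92, 0.91 and 0.90 among 12136 genes compared. Fam174b (0.89), Pcdh17 (0.89) and Pgm1 (0.86) were nearest to Robo4, and Atg12 (0.86), Fbln1 (0.85) and Gpatch2 (0.84) to Robo1. Nearest to Slit2 were Psmb8 (0.89), Cebpa (0.87) and Polb (0.86), and to Slit3 Zmiz2 (0.90), Nid2 (0.87) and Itprip (0.87). These are the highest of many values from libraries that share group differences, so they are descriptions. By Spearman's rho 3 of the 15 genes were still among the closest 3.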

How the data were processed

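The authors deposited raw counts, a whole number per gene for 20620 genes in 12 libraries, and a comparison table for 13959 genes. The authors' deposited table gives log2 fold changes, p-values before and after adjustment, the signal of each gene as a mean of normalized counts, and 2 scores, the standard error and the Wald statistic. The submitters' processing notes name Trim Galore, STAR 2.7.10b, the build GRCm39 and DESeq2 1.34.0. No source used here gives the counting tool, annotation or strand setting. The authors' deposited table names no comparison, and its log2 fold changes matched a DESeq2 refit of Notch1+/-;Gata5-/- against wildtype within 1.66e-04.

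Counts were analysed with edgeR 4.0.16 in R 4.3.3. FilterByExpr kept 19346 genes, TMM scaled the libraries, and a robust quasi-likelihood fit with a term per group over 12 libraries gave log2 fold changes, their SE and p-values adjusted by Benjamini-Hochberg over all genes (called under 0.05). All 5 members passed the filter. Log2 CPM used a prior count of 2. Single values were compared by two-sided exact permutation tests over 35 splits, and correlations by 100000 permutations. Tested on simulated data for Gata5-null-labelled against wildtype over 19346 genes, the fit called 61% of genes with an absolute log2 change of 1 and 93% of those with 2. The changed genes were drawn only from the better expressed ones, so these shares do not cover genes with low counts such as Robo3. The counts were drawn independently for each gene and library. Shifts shared by many genes of a library, as in libraries that stand apart, are therefore not covered either. Alternatives used DESeq2 1.42.0 and limma 3.58.1.

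Members and lists were chosen with earlier results of these data known. Genes named were the members, Slit1, Robo3, Notch1, Gata5, the 3 pathway genes per list with the smallest p, the 3 endothelial genes with the highest mean and the 3 genes closest to each member. The others, Sdc3, Dcc, Zfp944 and Col8a1, were chosen after their values were seen. The labels call each pool a biological replicate and do not tie pools to litters, so p-values measure the spread between these pools. Gene symbols came from the authors' deposited table and, for 6077 further genes, from GENCODE M21.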

Additional observations from a re-analysis of the deposited data

Results flagged for a closer look

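In the Gata5-heterozygous-labelled group, replicate 1 stood far from the others for Robo4, at 10.3 CPM against 17.7, 18.3 and 17.7 CPM. The gap to the nearest library was 0.916 of the group's range, above Dixon's 95% critical value for 4 samples. It was 1 of 15 groups of 4 looked at, and chance flags about 1 in 20. Without this library the log2 fold change of Robo4 against wildtype was 0.25 in place of 0.09.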

How the results depend on the processing

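Robo2 kept its direction in each of the 3 comparisons under all alternatives run, other normalizations, filters and tests, fewer libraries, and each library left out in turn, and no member was called in the 2 comparisons tested under any of them. Calls over all genes in Gata5-null-labelled against wildtype were 5, and 49 with DESeq2, 0 with only the 8 libraries compared, 2 without both libraries that stand apart, and 2 (without wildtype replicate 2) to 21 (without Gata5-null-labelled replicate 4) with 1 library left out. DESeq2 called 8 genes for Gata5-heterozygous-labelled against wildtype and 13 for Gata5-null-labelled against Gata5-heterozygous-labelled, where edgeR called 0. In the latter, 2 genes were called without both libraries that stand apart and 0 to 1 with 1 library left out. For Gata5-heterozygous-labelled against wildtype, Slit3 turned from -0.02 to 0.0013 in limma-voom and to 0.068 without both libraries that stand apart, and Slit2 from -0.09 to 0.045 without those. With 1 library left out Slit3 ranged from -0.17 to 0.069 and Slit2 from -0.15 to 0.045. For Gata5-null-labelled against Gata5-heterozygous-labelled, Robo1 ranged from -0.16 to 0.025, Robo4 from -0.051 to 0.27, Slit2 from 0.075 to 0.27, Slit3 from -0.15 to -0.049 and Robo2 from 0.44 to 0.63. The cause was not tested. The alternatives for the smooth muscle count were chosen after seeing the data. Of the members 3 kept their rank per length with the other length, and of the 15 closest genes 3, 2 and 1 remained among the closest 3 with Spearman's rho, deviations from group means and 10 libraries.

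Replicate numbers are shared by the groups, and the deviations of same-numbered libraries had correlations of -0.02 to 0.21 over the 12 pairs. The pairs of replicate 4 were the highest, at 0.21, 0.093 and 0.098. Libraries with different numbers were not compared. The labels do not tie pools to litters, so the numbers are not taken as pairs. With the replicate number as a block the counts of calls were 7, 0 and 0, and the log2 fold change of Robo2 against wildtype stayed within 0.66 to 0.80, the range over the alternatives that leave out no single library. Members had 198 to 2561 counts per library, whereas Robo3 and Slit1 were limited by depth.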

Other observations

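In wildtype, Robo1 and Robo2 ran in opposite order over the 4 libraries. Replicate 2 had the most Robo1 (80.8 CPM) and the least Robo2 (21.7 CPM), and replicate 4 the least Robo1 (49.0 CPM) and the most Robo2 (29.7 CPM). In the mutant groups this order was not seen, and 4 libraries are too few for a correlation. Wildtype replicate 2 is 1 of the libraries that stand apart and had the lowest cardiomyocyte marker sum of all 12 libraries (23807 CPM). For deviations from group means over the 12 libraries, Pearson's r of Robo1 with Robo2 was 0.0084. The pattern was noticed after the values were seen.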
